A study of Homo sapiens with 18 samples.

Results

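The 36 genes described here encode proteins of the lysosome and of autophagy, and were taken by symbol from a count table of 60642 gene symbols. Each of the 36 symbols was found, and each passed the filter on low counts in every fit. They comprise 2 transcription factors, 7 proteins of the lysosomal membrane, 6 proteases, 8 glycosidases and sulfatases, 5 proteins of lipid breakdown and export, 3 proteins of autophagy initiation and membrane supply, and 5 ATG8 proteins and autophagy receptors. They were counted by RNA sequencing in 2 human lines of colorectal cancer, with 3 libraries in each of 6 groups. HT-29 iZEB1 is a form of HT-29 that carries ZEB1, a repressor of epithelial genes, under a doxycycline (DOX) switch. SW620 is an established line derived from a lymph node metastasis and received no inducer.

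The 4 HT-29 iZEB1 groups had the vehicle DMSO alone, DOX with DMSO, RepSox alone, and DOX with RepSox. The SW620 groups had DMSO or RepSox. RepSox, an inhibitor of the TGF-β type I receptor kinase ALK5, was added for 24 h at 10 µM. The DOX concentration was 1 µg per ml. The sources differ on the length of the DOX treatment, with 24 h in the treatment protocol and 48 h in the design text. All cells were seeded at 600000 per well. No parental HT-29 library with DOX was analysed here, so the effects of DOX itself and of ZEB1 cannot be told apart. Whether the 3 replicates were separate cultures is not stated in the labels, and each p-value reflects only how these libraries vary, a spread that may be technical.

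Lysosomes are acidic organelles in which hydrolases break down proteins, glycans and lipids delivered by endocytosis and autophagy. Autophagy starts with the kinase ULK1 and with membrane supply by ATG9A and WIPI proteins. ATG8 proteins of the LC3 and GABARAP groups are then attached to the growing membrane, where receptors such as SQSTM1 tie cargo to it. The related factors TFEB and TFE3 bind an E-box-containing element, known as the CLEAR element, in the promoters of many lysosomal genes, and their activity is set largely by phosphorylation at the lysosome rather than by their mRNA level.

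The libraries held 36.5 to 39.8 M counts each, of which the 36 genes took 0.253% to 0.561% in all. Levels are given as CPM, each library's counts relative to its total (1 CPM is 1 count in 1 M), with totals scaled by TMM over all 18 libraries. ZEB1, the induced gene, stood at 7.97, 7.43 and 10.5 CPM with DMSO alone and at 375, 385 and 379 CPM with DOX. With DOX and RepSox it stood at 14.9, 16 and 17.6 CPM, and with RepSox alone at 5.16, 5.47 and 5.73 CPM. The DOX-induced rise of ZEB1 mRNA was thus present in both media but far smaller with RepSox, with a log2 change of 1.57 (SE 0.107) against 5.47 (SE 0.104). Of 10 macrophage and monocyte markers, which summed to 0.48 to 8.64 CPM, C1QA and C1QC were at 0 in all 6 groups, and CD14 was the highest, with means of 5.18 to 6.30 CPM across the 4 groups of HT-29 iZEB1. Of the 2 that could be tested there, ITGAM was called higher with DOX, at 0.65 against 0.133 CPM, and CD14 was not called. The 5 endothelial markers summed to 2.31 to 3.40 CPM with DMSO alone, 10.4 to 11.1 CPM with DOX, 7.91 to 9.64 CPM with RepSox and 7.78 to 9.71 CPM with both. TEK, a receptor kinase, made up most of that sum, at a mean of 2.37, 9.78, 8.46 and 8.34 CPM in that order, while CDH5 and KDR were at 0 in each of these groups but DOX with DMSO. The 7 fibroblast markers summed to at most 1.49 CPM in HT-29 iZEB1, with COL1A2 and PDGFRA at 0. In SW620 they summed to 11.25 to 12.7 CPM in DMSO and 6.49 to 7.71 CPM in RepSox, with LUM the highest. All 3 that could be tested there were called lower with RepSox, against 9.24% of all genes. The part of the macrophage, endothelial and fibroblast markers in the results was not tested. The summed level of 8 colon epithelial markers was 8339 to 9417 CPM with DMSO alone, 4254 to 4602 CPM with DOX, 9156 to 9641 CPM with RepSox and 9846 to 10628 CPM with both. Of these 8 markers 6 fell with DOX in DMSO (75%, against 21.1% of all genes), and KRT8, keratin 8, had the highest level of the list in each group. Replicate 2 of DOX with DMSO and replicate 1 of DOX with RepSox stood apart from the other libraries of their groups. Chi-square per degree of freedom was 32.6 and 42.6, and 16.1 and 24.1, against 8.95 and 7 between the remaining libraries. Replicate 1 of RepSox alone had 14 and 14.9 against 5.97, and replicate 3 of SW620 in DMSO 8.62 and 7.96 against 3.93. In both DOX libraries named, the 36 genes lay on average 0.09 above their group means on the log2 scale. The mean deviation was 0.005 in the named library of RepSox alone and -0.03 in that of SW620.

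DOX in DMSO raised most of these genes by modest amounts. By edgeR's quasi-likelihood test with Benjamini-Hochberg adjustment over all genes (a gene is called at an adjusted p below 0.05), 24 of the 36 were called higher and 5 lower, with a median log2 change of 0.30. Of all 16978 genes tested, 19.2% were called higher and 21.1% lower, and the median change was 0.00. The rises of GABARAPL1, SMPD1, CALCOCO1 and WIPI1 exceeded 2-fold. These were the only 4 of the 36 called at 2-fold or more, against 1350 of all 16978 genes in either direction. TFEB fell, as did NPC1, CTSD, PPT1 and GLA. With scaling by library totals in place of TMM, 25 were called higher and only TFEB lower. Without replicate 2 of DOX with DMSO, 25 of the 36 were called in all, and 7055 of all genes against 6853 with it.

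RepSox given together with DOX left most of the same set lower than DOX alone. In that comparison 29 of the 36 were called lower and 3 higher (TFEB, GLA and PPT1), with a median log2 difference of -0.46, where 25.5% of all genes were called lower and 26.8% higher. Both comparisons use the DOX with DMSO libraries, so a chance excess in those libraries would appear in both with opposite sign, and they are not independent. Without replicate 2 of DOX with DMSO, 29 were called in all, and without replicate 1 of DOX with RepSox, 30 were.

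RepSox alone, in cells without DOX, lowered 12 of the 36 and raised 0 by edgeR, with a median log2 change of -0.14, against 12.8% and 12.5% of all genes. DESeq2 called 13 lower and 0 higher, and 16 of the 36 had an unadjusted p below 0.05 in edgeR, of which PPT1 alone was on the higher side (log2 0.12, unadjusted p = 0.0389 in edgeR). The 12 called genes were TFE3, ATP6V0D1, ATP6V1H, TMEM59, CTSZ, IDS, NEU1, PSAP, SMPD1, GABARAPL1, SQSTM1 and CALCOCO1. DOX with RepSox against DMSO alone gave 18 called lower and 0 higher, both by edgeR and by DESeq2, with a median log2 difference of -0.23 (13.6% and 12.6% of all genes). In edgeR 21 of the 36 had an unadjusted p below 0.05 there, of which LIPA alone was on the higher side (log2 0.17). The share of all genes at an unadjusted p below 0.05 is not given here, so the counts at that threshold cannot be set against it.

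In the presence of RepSox, DOX changed few genes of any kind. None of the 36 was called by edgeR, 0 higher and 0 lower, with a median log2 change of -0.05, and 0.0942% of all genes were called higher and 0.383% lower. At an unadjusted p below 0.05 there were 5 of the 36, with the share of all genes not given here, and DESeq2 called 1. That count rested on one library: without replicate 1 of DOX with RepSox, 6 were called, each lower (CTSD at -0.57, MCOLN1 at -0.52, TFEB at -0.46, ATP6V0D1 at -0.32, and CTSA and ATG9A at -0.30), and the number over all genes went from 81 to 1670. The interaction term, which asks whether the DOX response differed between RepSox and DMSO, was called for 17 of the 36. It was below 0 for 16 and above 0 only for TFEB, with a median of -0.28, where 9.61% of all genes were called below 0 and 13% above. The term of TFEB (0.54, adjusted p = 0.0285) lost its call in 6 of 12 fits that left out 1 library (adjusted p = 0.0546 to 0.0778). Without replicate 1 of DOX with RepSox, the term was called for 22 of the 36, and for 4393 of all genes against 3834 with it. The far lower ZEB1 mRNA in the RepSox medium moved with this difference, and its part was not tested.

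**Figure D1:**
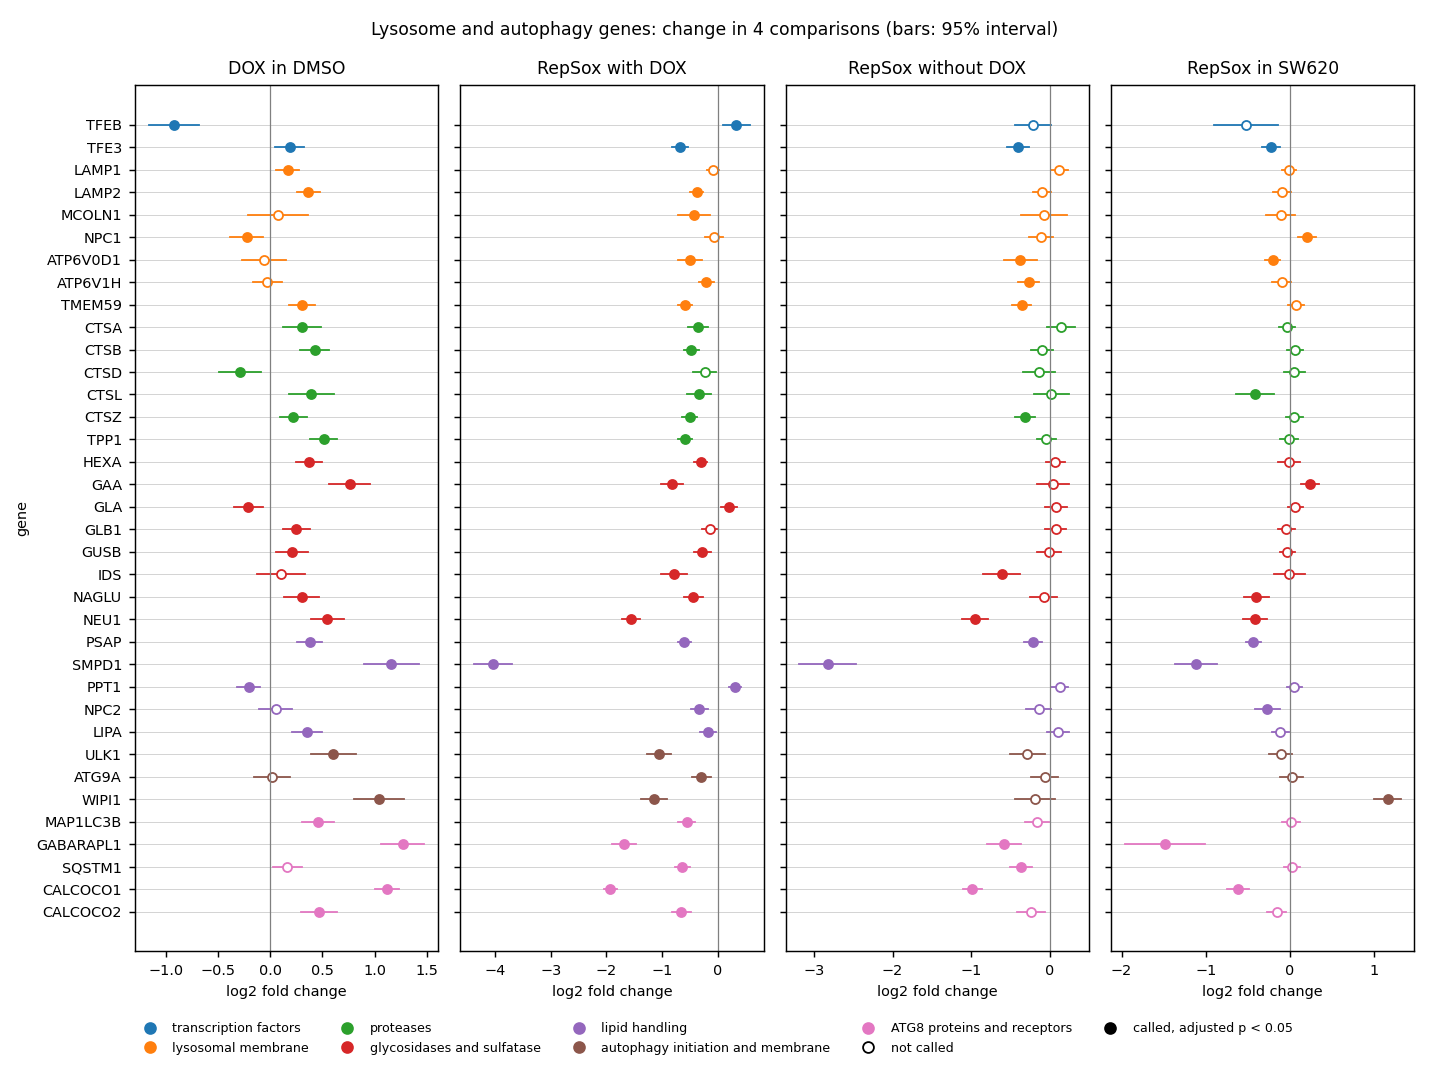
Log2 fold change of each of the 36 genes (rows, coloured by role) in 4 comparisons, with 95% intervals as bars and filled points for genes called at an adjusted p below 0.05. Most points lie right of 0 for DOX in DMSO (24 called higher) and left of 0 for RepSox with DOX (29 called lower), and SMPD1 lies farthest left in both HT-29 panels with RepSox. The horizontal scales differ between panels.

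Across the 4 HT-29 iZEB1 groups, DOX with DMSO had the highest mean for 29 of the 36 genes, while it had the highest mean for 37.4% of all genes. DOX with RepSox had the lowest mean for 18 of them, against 20.3% of all genes. The 36 genes took 0.516% to 0.561% of all counts in the DOX with DMSO libraries, 0.417% to 0.433% with DMSO alone, and 0.368% to 0.394% with DOX and RepSox. As these are bulk libraries, fewer cells carrying a transcript and less of it per cell cannot be told apart. The epithelial markers moved opposite to most of the 36 genes in the comparisons that use the DOX with DMSO libraries. For DOX in DMSO 6 of 8 were lower (against 21.1% of all genes) and 0 higher. For RepSox with DOX 6 were higher (against 26.8%) and 1 lower. The interaction term was called above 0 for 6 (against 13%) and below 0 for 0. For RepSox alone they did not move opposite, with 3 lower (against 12.8%) and 0 higher. Nor did they for DOX with RepSox against DMSO alone, with 4 lower and 2 higher (against 13.6% and 12.6%). Their part in these results was not tested.

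The 2 transcription factors went in different directions with DOX. TFEB (chromosome 6, 41683978 to 41736259, minus strand, GRCh38) stood at 18.1, 18.8 and 15.8 CPM with DMSO alone and at 7.23, 9.9 and 10.4 CPM with DOX. The DOX libraries all lay below the DMSO libraries, a fall to a level 1.9-fold lower (log2 -0.93, SE 0.122, adjusted p = 6.56e-06, edgeR). With DOX and RepSox TFEB stood at 13, 10.8 and 11.2 CPM, each above the highest DOX library (log2 0.33, SE 0.124, adjusted p = 0.0336), a call lost under scaling by library totals (adjusted p = 0.0778), without replicate 1 of DOX with DMSO (log2 0.18, adjusted p = 0.2) and without replicate 1 of DOX with RepSox (log2 0.25, adjusted p = 0.12). RepSox alone gave 16.8, 14 and 15 CPM, which overlapped with DMSO alone (log2 -0.21, adjusted p = 0.209).

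TFE3 (chromosome X, 49028726 to 49043486, minus strand) was the more abundant of the pair, with 16.2 ± 0.528 CPM per kb of exon in DMSO against 3.11 ± 0.275 for TFEB (SD, n = 3). Its level was 69.6, 71.5 and 67 CPM with DMSO alone, 77.6, 83.9 and 73.9 CPM with DOX, 54.3, 51.1 and 53 CPM with RepSox, and 54.4, 48.6 and 45.8 CPM with both. The DOX libraries lay highest and both RepSox groups lowest, without overlap with the DMSO libraries. The rise with DOX was small (log2 0.19, SE 0.07, adjusted p = 0.0396, edgeR) and lost its call in 5 of 6 fits that left out 1 library (log2 0.13 to 0.21, adjusted p = 0.057 to 0.156, the weakest without replicate 2 of DOX with DMSO), and the fall with RepSox was -0.68 (SE 0.0708, adjusted p = 2.15e-07) with DOX and -0.41 (SE 0.0709, adjusted p = 0.000331) without it. MITF, another member of the family, was at 0.316 CPM on average in SW620 in DMSO, its highest group.

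Because TFEB and TFE3 bind E-boxes, the promoters of the set were read for the E-box CACGTG and for TCACGTG, a 7-base CLEAR-type site that contains it, on both strands of the 300 bases around each start site. RefSeq promoters (GRCh38.p14) were matched for 29 of the 36 genes. An E-box was present in 7 of 29 (24.1%), namely NEU1, CTSD, LAMP1, ATP6V0D1, GAA, MCOLN1 and CTSA, against 7.43% of 27305 promoters in the table and 8.94% of 14896 promoters of protein-coding genes. TCACGTG was present in the same 24.1%, against 3.82% and 4.83%. The ZEB-type E-box CAGGTG, which ZEB1 can bind, was present in 9 of 29 (31.0%), against 20.6% and 19.8%. A match describes the letters in this window and is not a measured binding site. The following stretches of 100 bases lie upstream of 4 start sites and run 5′ to 3′ on the strand of the gene. They are shown because in these 4 of the 7 carriers a site lies upstream of the annotated gene. Capitals mark TCACGTG, with an eighth capital where both strands match. The last site of GAA matches on both strands too, but the stretch ends before its final capital.
NEU1 (chr6:31862907-31863006, minus strand): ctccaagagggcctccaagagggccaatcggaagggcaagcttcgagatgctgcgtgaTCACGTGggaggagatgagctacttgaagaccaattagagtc
LAMP1 (chr13:113297025-113297124, plus strand): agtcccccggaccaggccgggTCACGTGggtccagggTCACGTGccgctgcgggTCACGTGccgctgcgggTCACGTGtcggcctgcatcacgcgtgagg
GAA (chr17:80101456-80101555, plus strand): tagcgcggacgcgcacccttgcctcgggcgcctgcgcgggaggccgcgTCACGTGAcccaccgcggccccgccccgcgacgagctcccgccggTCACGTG
MCOLN1 (chr19:7522524-7522623, plus strand): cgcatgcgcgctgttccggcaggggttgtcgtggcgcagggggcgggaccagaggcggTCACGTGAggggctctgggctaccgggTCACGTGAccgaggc

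The stretch of NEU1 holds 1 E-box, that of LAMP1 4, and those of GAA and MCOLN1 2 each. With DOX, GAA, NEU1, CTSA and LAMP1 rose by 0.76, 0.55, 0.30 and 0.17 on the log2 scale and CTSD had -0.29, while MCOLN1 (0.08) and ATP6V0D1 (-0.06) were not called (adjusted p = 0.715 and 0.702, edgeR). In RepSox with DOX, NEU1 (-1.56), GAA (-0.83), ATP6V0D1 (-0.50), MCOLN1 (-0.42) and CTSA (-0.35) were called lower, and CTSD (-0.24) and LAMP1 (-0.09) were not called (adjusted p = 0.0587 and 0.221). Whether the motif count goes with the change was not tested. The promoter window of SMPD1, the gene with the largest RepSox response, holds none of the 3 motifs.

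Among proteins of the lysosomal membrane, DOX raised 3 of the 7 (LAMP1, LAMP2 and TMEM59) and lowered NPC1, while ATP6V0D1, ATP6V1H and MCOLN1 were not called. That is 42.9% higher and 14.3% lower, against 19.2% and 21.1% of all genes. LAMP2, a glycoprotein that lines the membrane and serves chaperone-mediated autophagy, stood at 127, 120 and 130 CPM with DMSO alone and at 166, 152 and 164 CPM with DOX. The groups did not overlap (log2 0.36, SE 0.0568, adjusted p = 4.36e-05, edgeR), and with DOX and RepSox it was at 126, 124 and 124 CPM, inside the range of DMSO alone. TMEM59, a membrane protein that can engage ATG16L1, stood at 212, 207 and 216 CPM with DMSO alone, 263, 263 and 251 CPM with DOX, 176, 155 and 168 CPM with RepSox, and 171, 164 and 185 CPM with both. Its DOX libraries were the highest and all RepSox libraries lay below those with DMSO (RepSox without DOX, log2 -0.36, adjusted p = 0.000334). LAMP1, the most abundant membrane gene per length, stood at 503, 519 and 470 CPM with DMSO alone and 553, 570 and 541 CPM with DOX (log2 0.17, adjusted p = 0.0259), a call lost in 3 of 6 fits that left out 1 library (adjusted p = 0.0564 to 0.125) and without the filter on low counts (adjusted p = 0.0705). NPC1, a cholesterol exporter, stood at 35.3, 41.5 and 40.2 CPM with DMSO alone and at 30.8, 36.5 and 32.1 CPM with DOX, groups that overlapped (log2 -0.23, adjusted p = 0.0304, lost in 4 of 6 fits that left out 1 library at 0.0879 to 0.136). RepSox without DOX lowered the 2 proton pump subunits, with log2 changes of -0.38 for ATP6V0D1 (adjusted p = 0.0147) and -0.27 for ATP6V1H (adjusted p = 0.00759). The first lost its call without replicate 3 of RepSox (adjusted p = 0.0719) or replicate 1 of DMSO (adjusted p = 0.0634), and the second without replicate 2 (adjusted p = 0.0517). MCOLN1, the lysosomal calcium channel, was lower with DOX and RepSox than with DOX (log2 -0.42, adjusted p = 0.0214), but replicate 1 of DOX with RepSox was at 9.81 CPM and the other 2 at 6.23 and 6.18 CPM, so the groups overlapped, and the call was lost in 3 of 6 fits that left out 1 library (adjusted p = 0.08 to 0.117).

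Among the proteases, 5 of 6 rose with DOX (CTSA, CTSB, CTSL, CTSZ and TPP1) and CTSD fell. That is 83.3% higher and 16.7% lower, against 19.2% and 21.1% of all genes. TPP1, which removes tripeptides from protein ends, stood at 97, 96.3 and 106 CPM with DMSO alone and at 137, 142 and 146 CPM with DOX, without overlap (log2 0.51, SE 0.0637, adjusted p = 3.29e-06, edgeR). With RepSox it was at 91.2, 98.9 and 103 CPM and with both at 96.5, 95 and 91.6 CPM, so that the DOX libraries alone stood out. The interaction term for TPP1 was -0.55 (SE 0.0902, adjusted p = 0.000184). CTSB, the cysteine protease cathepsin B, rose by 0.43 (SE 0.0704, adjusted p = 7.75e-05) and was lower with RepSox and DOX by -0.48 (SE 0.0704, adjusted p = 1.39e-05). CTSZ, a carboxypeptidase, ranked after PSAP per length in HT-29 iZEB1 in DMSO, and was lower with RepSox both with DOX (log2 -0.51, adjusted p = 2.97e-06) and without it (log2 -0.32, adjusted p = 0.00142). CTSD, the aspartic protease cathepsin D, stood at 340, 319 and 303 CPM with DMSO alone and at 244, 291 and 245 CPM with DOX. The groups did not overlap, yet the change of -0.29 (SE 0.102, adjusted p = 0.0282) was lost under scaling by library totals (adjusted p = 0.0821) and in 4 of 6 fits that left out 1 library (adjusted p = 0.0625 to 0.113). CTSA and CTSZ lost their calls for DOX in 2 and 1 of these fits. In the annotation 41.7% of the exon bases of CTSD also belong to AC068580.4, a gene on the same strand with 258 counts in all libraries against 134768 for CTSD.

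Of the 8 glycosidases and sulfatases, which remove sugars and sulfate from glycans and glycolipids, 6 rose with DOX, GLA fell, and IDS was not called. That is 75% higher and 12.5% lower, against 19.2% and 21.1% of all genes. NEU1 (chromosome 6, 31857659 to 31862906, minus strand), the lysosomal sialidase, stood at 63.8, 60.9 and 64.7 CPM with DMSO alone, 83.4, 105 and 86.4 CPM with DOX, 34, 33 and 31.7 CPM with RepSox, and 34.2, 30.4 and 29.8 CPM with both. The DOX libraries were the highest, and all RepSox libraries lay far below those with DMSO alone. The rise with DOX was 1.46-fold (log2 0.55, SE 0.0813, adjusted p = 2.45e-05, edgeR), and RepSox lowered it 2.95-fold with DOX (log2 -1.56, SE 0.0841, adjusted p = 3.35e-11) and 1.94-fold without (log2 -0.96, SE 0.0839, adjusted p = 1.9e-07). GAA (chromosome 17, 80101556 to 80119879, plus strand), the acid alpha-glucosidase that degrades glycogen, behaved otherwise. It stood at 10.4, 10.5 and 9.41 CPM with DMSO alone, 14.8, 18.5 and 17.8 CPM with DOX, 9.93, 10.9 and 10.7 CPM with RepSox, and 10.4, 9.68 and 9.08 CPM with both. Only the DOX with DMSO libraries stood apart (DOX, log2 0.76, SE 0.0989, adjusted p = 5.42e-06), and RepSox without DOX gave a change of 0.04 with a 95% interval from -0.16 to 0.24. HEXA, GLB1, GUSB and NAGLU rose with DOX by 0.21 to 0.37. The call of GUSB was lost in 4 of 6 fits that left out 1 library (adjusted p = 0.0661 to 0.176), with a log2 change of 0.14 without replicate 2 of DOX with DMSO. GLA, alpha-galactosidase A, stood at 47.7, 49.5 and 49.4 CPM with DMSO alone, 40.1, 44.8 and 41 CPM with DOX, and 50.9, 46 and 49.3 CPM with both. The DOX libraries were the lowest (DOX, log2 -0.21, adjusted p = 0.0223; RepSox with DOX, log2 0.20, adjusted p = 0.0224), and both calls were lost under scaling by library totals (adjusted p = 0.123 and 0.0997) and each in 4 of 6 fits that left out 1 library (adjusted p = 0.0549 to 0.0917 and 0.0609 to 0.0902). IDS, iduronate-2-sulfatase, stood at 12.1, 13.5 and 10.9 CPM with DMSO alone, 11.5, 14.6 and 12.8 CPM with DOX, 7.67, 8.43 and 7.93 CPM with RepSox, and 8.66, 7.81 and 6.37 CPM with both. All RepSox libraries lay below all DMSO libraries (log2 -0.78 with DOX and -0.62 without, adjusted p = 2.28e-05 and 0.00101).

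The genes of lipid breakdown and export held the largest response of the set. SMPD1 (chromosome 11, 6390431 to 6394998, plus strand) encodes acid sphingomyelinase, which cleaves sphingomyelin to ceramide. It stood at 3.46, 3.9 and 3.44 CPM with DMSO alone and at 7.64, 9.05 and 7.28 CPM with DOX. With RepSox it stood at 0.519, 0.527 and 0.489 CPM and with both at 0.545, 0.488 and 0.438 CPM. The 4 groups formed 3 separate levels, both RepSox groups overlapping at the lowest. DOX raised it 2.23-fold (log2 1.16, SE 0.134, adjusted p = 1.36e-06, edgeR), and RepSox lowered it 16.4-fold with DOX (log2 -4.03, SE 0.175, adjusted p = 2.09e-12) and 7.07-fold without (log2 -2.82, SE 0.185, adjusted p = 6.31e-09). The RepSox groups held 54 and 53 counts over 3 libraries, against 379 and 946 in the DMSO groups, so a difference between the RepSox groups (log2 -0.05, 95% interval -0.54 to 0.43) was not detectable at this depth. PSAP (chromosome 10, 71816298 to 71851375, minus strand), the precursor of the saposins that assist sphingolipid hydrolases, was the most abundant gene of the set per length in each line in DMSO. It stood at 906, 873 and 839 CPM with DMSO alone, 1125, 1187 and 1064 CPM with DOX, 789, 764 and 730 CPM with RepSox, and 787, 729 and 723 CPM with both. Each RepSox library lay below each DMSO library, and the DOX libraries lay above them (DOX, log2 0.38, SE 0.0596, adjusted p = 5.15e-05; RepSox with DOX, log2 -0.61, SE 0.0598, adjusted p = 9.93e-08). PPT1, the palmitoyl-protein thioesterase, stood at 259, 251 and 261 CPM with DMSO alone, 220, 225 and 219 CPM with DOX, and 280, 263 and 286 CPM with both. It went the other way, with log2 -0.21 for DOX (adjusted p = 0.00594, lost under scaling by library totals at 0.0641) and 0.31 for RepSox with DOX (adjusted p = 0.000132). Of its exon bases 23.4% overlap CAP1 on the other strand, which had -0.23 in the second comparison. LIPA, the acid lipase, rose with DOX by 0.35 (adjusted p = 0.000729), and NPC2, a cholesterol carrier, did not change detectably with it (log2 0.05, adjusted p = 0.64).

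**Figure D2:**
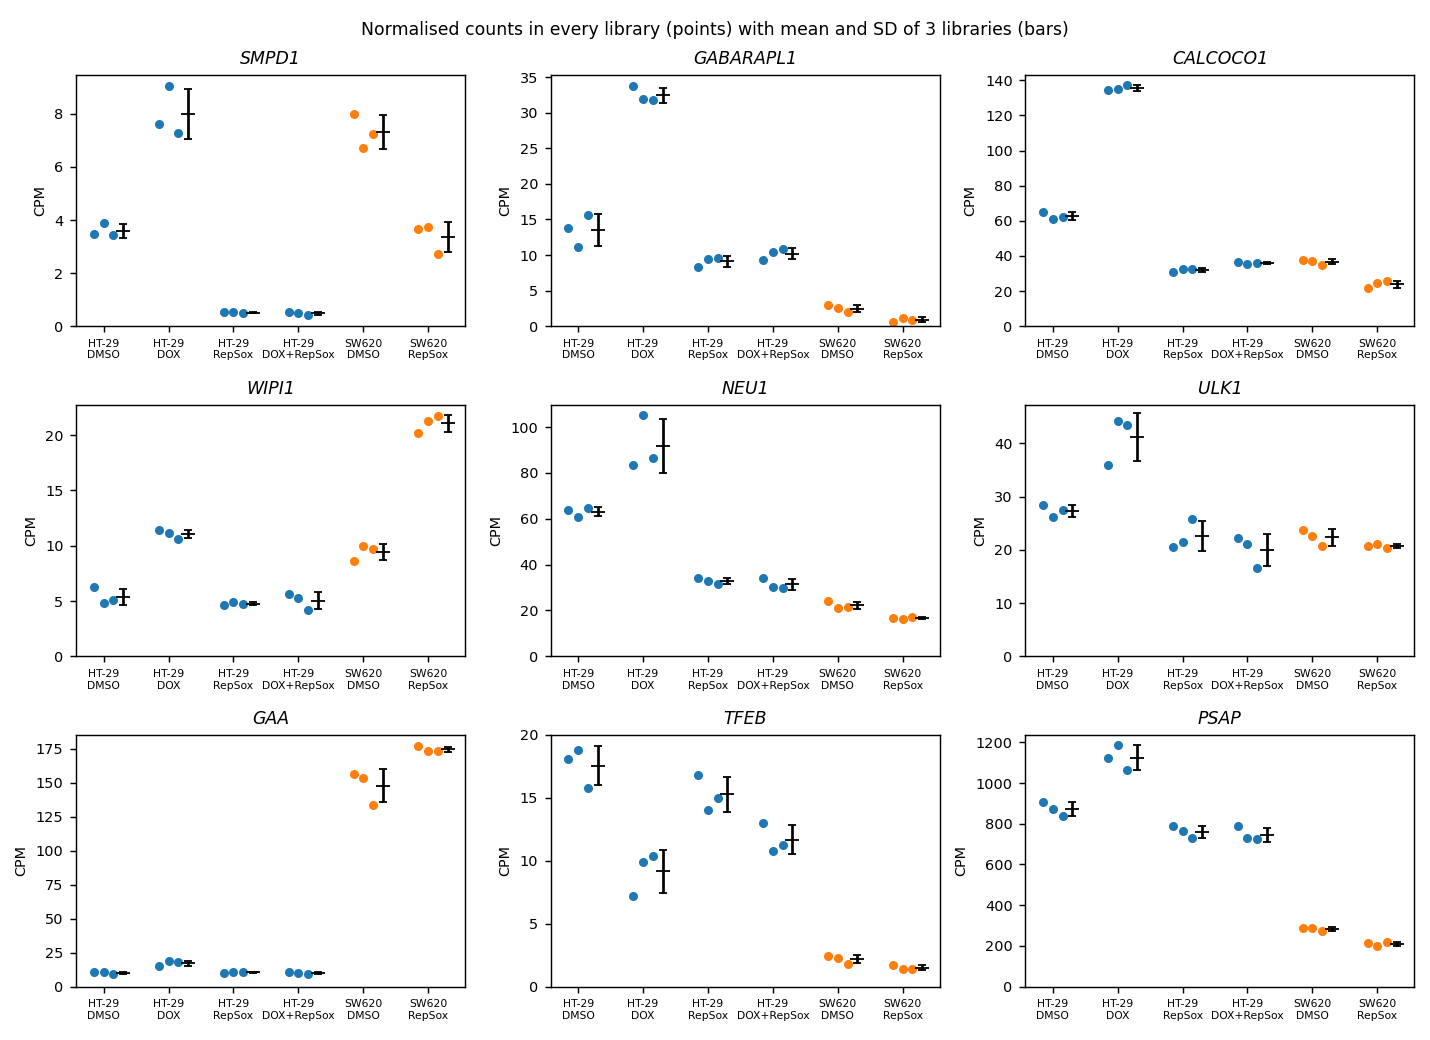
Normalised counts (CPM, vertical axis from 0) of 9 genes in every library (points, blue for HT-29 iZEB1 and orange for SW620), with mean and SD of 3 libraries as bars. SMPD1 is near 0.5 CPM in both HT-29 groups with RepSox, WIPI1 is highest in SW620 with RepSox at 21.1 CPM, and GAA lies above 130 CPM in SW620 alone.

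Of the genes of autophagy initiation and membrane supply, ULK1 and WIPI1 rose with DOX and ATG9A was not called (log2 0.02, adjusted p = 0.898, edgeR). ULK1, the kinase that starts autophagy (chromosome 12, 131894651 to 131923167, plus strand) stood at 28.4, 26.1 and 27.4 CPM with DMSO alone, 35.9, 44.2 and 43.5 CPM with DOX, 20.5, 21.4 and 25.8 CPM with RepSox, and 22.3, 21 and 16.5 CPM with both. The DOX libraries were above all others (log2 0.60, SE 0.11, adjusted p = 0.000229, edgeR), and RepSox with DOX was 2.09-fold lower than DOX (log2 -1.06, SE 0.112, adjusted p = 2.54e-07). WIPI1 (chromosome 17, 68420948 to 68457513, minus strand), which binds phosphatidylinositol 3-phosphate on forming autophagosomes, stood at 6.23, 4.84 and 5.09 CPM with DMSO alone and 11.4, 11.1 and 10.6 CPM with DOX. With RepSox it was at 4.65, 4.92 and 4.75 CPM and with both at 5.68, 5.23 and 4.18 CPM, overlapping with DMSO alone. DOX raised it 2.06-fold (log2 1.04, SE 0.122, adjusted p = 1.43e-06), and RepSox without DOX gave -0.19 (95% interval -0.44 to 0.06). Of the WIPI1 exon bases, 24.3% overlap ARSG on the other strand. ARSG had -0.01 for DOX, not called, and 0.64 for RepSox with DOX (adjusted p = 0.00139, edgeR). How reads in the shared bases were counted is not known, and the part of ARSG was not tested.

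Of the 5 ATG8 proteins and receptors, 4 were called higher with DOX and 0 lower (80% and 0%, against 19.2% and 21.1% of all genes). GABARAPL1 and CALCOCO1 were among the 4 genes of the set that rose over 2-fold. GABARAPL1 (chromosome 12, 10212458 to 10223130, plus strand), an ATG8 protein of the GABARAP group, stood at 13.8, 11.2 and 15.7 CPM with DMSO alone, 33.7, 31.9 and 31.8 CPM with DOX, 8.25, 9.45 and 9.64 CPM with RepSox, and 9.35, 10.4 and 10.9 CPM with both. The DOX libraries lay far above every other library and the RepSox libraries lay below those with DMSO. The changes were 1.27 with DOX (SE 0.106, adjusted p = 1.76e-08, edgeR), -1.68 for RepSox with DOX (SE 0.108, adjusted p = 3.5e-10) and -0.58 for RepSox alone (SE 0.113, adjusted p = 0.000836), all log2. CALCOCO1 (chromosome 12, 53708517 to 53727745, minus strand), a receptor for autophagy of the endoplasmic reticulum, stood at 65.2, 60.8 and 62.3 CPM with DMSO alone, 134, 135 and 138 CPM with DOX, 30.9, 32.5 and 32.6 CPM with RepSox, and 36.7, 35.3 and 35.7 CPM with both. Its 4 groups did not overlap, and it had the smallest adjusted p of the set for DOX (log2 1.12, SE 0.0574, adjusted p = 1.88e-11). RepSox lowered it 3.81-fold with DOX (adjusted p = 2.25e-14) and 1.98-fold without (adjusted p = 2.46e-09). CALCOCO2, the receptor also known as NDP52, and MAP1LC3B rose with DOX by 0.47 and 0.46 and were lower with RepSox and DOX by -0.66 and -0.56. MAP1LC3B2, a near-identical copy of MAP1LC3B, held 1162 counts against 32228, and reads may be split between them. SQSTM1, the receptor p62, was not called with DOX (log2 0.16, adjusted p = 0.0795) but was lower with RepSox, by -0.64 with DOX and -0.37 without (adjusted p = 5.52e-07 and 0.00083); 20.7% of its exon bases overlap MRNIP on the other strand.

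Other genes of the pathway, taken from 7 lists of genes outside the 36, were read in the same fits. The shares of all genes to set beside them are 19.2% higher and 21.1% lower for DOX in DMSO, 26.8% and 25.5% for RepSox with DOX, and 12.5% and 12.8% for RepSox alone. Of 25 other hydrolases and activators tested, 17 rose and 4 fell with DOX, and 15 were lower and 4 higher with RepSox and DOX than with DOX. CTSO, a cysteine protease, stood at 12.2, 10.4 and 11.5 CPM with DMSO alone, 34, 32.5 and 36.2 CPM with DOX, and 10.6, 10.4 and 10.3 CPM with both. Its DOX libraries stood alone (DOX, log2 1.60, adjusted p = 1.71e-11; RepSox with DOX, log2 -1.73, adjusted p = 5.79e-12, edgeR). CTSH, an aminopeptidase, went the other way, with -0.56 for DOX and 0.59 for RepSox with DOX (adjusted p = 1.22e-06 and 3.42e-07), as did ASAH1, acid ceramidase, with -0.50 and 0.28 (adjusted p = 2.94e-06 and 0.001).

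Among 11 tested autophagy receptors 8 (72.7%, against 19.2% of all genes) rose with DOX and 0 fell, and 8 were lower (against 25.5%) and 0 higher with RepSox and DOX than with DOX. RepSox alone lowered 7 of them (63.6%, against 12.8%) and raised 0. OPTN, a receptor for damaged mitochondria, stood at 36.9, 34.1 and 33.9 CPM with DMSO alone, 54.2, 53.6 and 51.3 CPM with DOX, 15.7, 16.2 and 16.1 CPM with RepSox, and 15.1, 18.9 and 20.1 CPM with both. As for CALCOCO1, the DOX libraries were highest and all RepSox libraries lay below DMSO alone (RepSox without DOX, log2 -1.14, SE 0.0915, adjusted p = 6.38e-08). Of 28 core autophagy genes tested, 9 rose (32.1%, against 19.2% of all genes) and 2 fell with DOX, with a median of 0.13. In RepSox with DOX 9 were lower and 3 higher, and the 32.1% that were lower lie near the 25.5% of all genes. ATG16L1, which helps attach ATG8 proteins to membrane, fell by 0.49 on the log2 scale with DOX (adjusted p = 3.88e-05) and was higher with RepSox and DOX by 0.75 (adjusted p = 1.37e-07).

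Of 15 further proton pump (V-ATPase) subunits, 1 rose and 2 fell with DOX, and 8 were lower and 1 higher in RepSox with DOX. Among 16 other membrane proteins 6 rose and 1 fell with DOX, led by OSTM1 (log2 0.89, adjusted p = 5.98e-07), and 9 were lower and 2 higher in RepSox with DOX. Of 16 MiT/TFE family and nutrient sensing genes 6 rose and 0 fell with DOX, and 9 were lower and 3 higher in RepSox with DOX. Those that rose include RRAGC, a Rag GTPase that recruits TFEB to the lysosome (log2 0.53, adjusted p = 4.8e-05). DEPTOR, an inhibitor of mTOR, was higher with RepSox alone (log2 1.16, adjusted p = 1.42e-05). Of 10 sorting genes, which carry enzymes to the lysosome, 2 rose and 3 fell with DOX (20% and 30%, against 19.2% and 21.1% of all genes), and 2 were higher and 1 lower in RepSox with DOX.

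**Figure D3:**
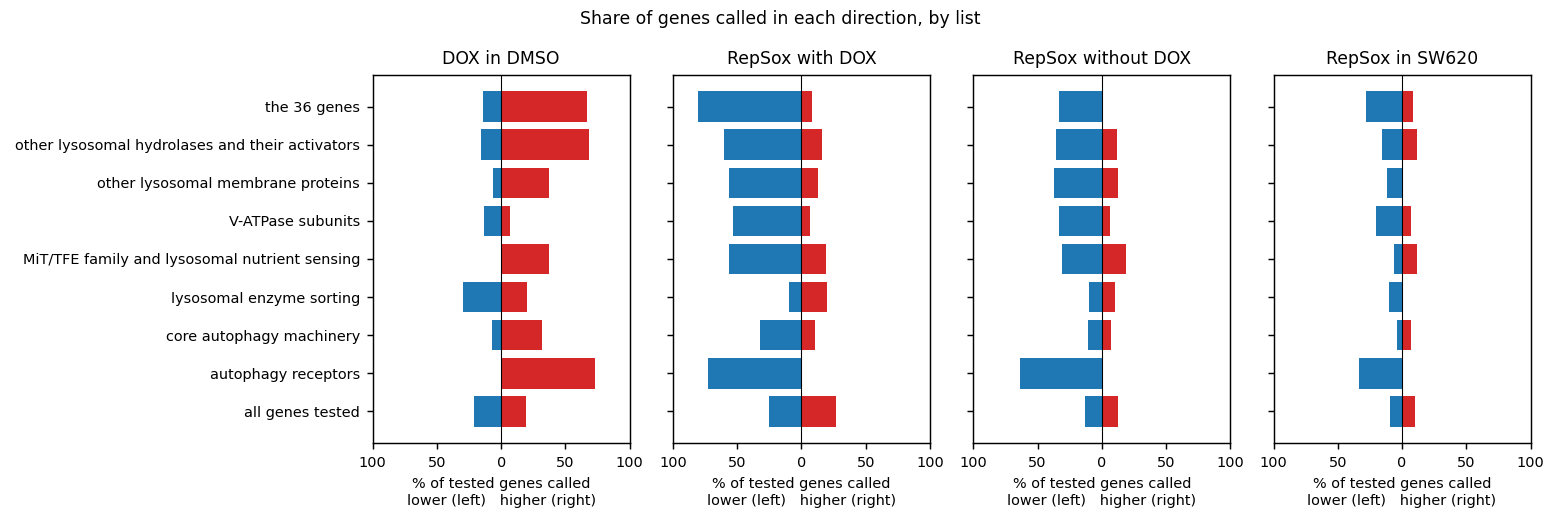
Share of tested genes called lower (blue, left) and higher (red, right) in 4 comparisons, for the 36 genes, 7 other lists and all genes tested. For DOX in DMSO the red bar is shorter than that of all genes (19.2%) only for the V-ATPase subunits, and the blue bar exceeds the red only for those subunits, the sorting genes and all genes.

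SW620 cells had ZEB1 at 19.2, 19.9 and 24.2 CPM in DMSO and 24, 22.9 and 22.7 CPM in RepSox. With RepSox, 10 of the 36 genes were called lower (27.8%, against 9.24% of all 17147 genes tested). Another 3 were called higher (8.33%, against 10.2%), a share that did not exceed that of all genes. The median log2 change of the 36 was -0.04. The genes that fell were TFE3, ATP6V0D1, CTSL, NAGLU, NEU1, PSAP, SMPD1, NPC2, GABARAPL1 and CALCOCO1, and those that rose were WIPI1, GAA and NPC1. The epithelial markers summed to 5518 to 5807 CPM in DMSO and 7887 to 8387 CPM in RepSox. Of 6 epithelial markers tested, 4 were called higher and 1 lower (against 10.2% and 9.24% of all genes), opposite to most called genes of the 36. The part of these markers in the changes was not tested.

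WIPI1 stood at 8.64, 9.93 and 9.71 CPM in DMSO and at 20.2, 21.3 and 21.7 CPM in RepSox, without overlap, a 2.24-fold rise (log2 1.16, SE 0.0794, adjusted p = 7.16e-11, edgeR). ARSG, which overlaps WIPI1 on the other strand, had a log2 change of -0.09 in the same comparison. SMPD1 stood at 8.01, 6.72 and 7.22 CPM in DMSO and 3.66, 3.74 and 2.71 CPM in RepSox, a 2.17-fold fall (log2 -1.12, SE 0.13, adjusted p = 6.14e-07). GABARAPL1 was low in this line, at 2.94, 2.51 and 1.97 CPM in DMSO and 0.53, 1.21 and 0.903 CPM in RepSox (297 and 104 counts over 3 libraries), and fell 2.8-fold (log2 -1.48, SE 0.245, adjusted p = 8.21e-05). CALCOCO1 fell from 37.9, 37.1 and 35.1 CPM to 21.5, 24.6 and 25.4 CPM (log2 -0.62, SE 0.0677, adjusted p = 2.26e-07). PSAP fell from 288, 289 and 271 CPM to 212, 199 and 217 CPM (log2 -0.43, SE 0.046, adjusted p = 1.47e-07). NEU1 fell from 24, 21.2 and 21.4 CPM to 16.5, 16.1 and 17.2 CPM (log2 -0.42, SE 0.0734, adjusted p = 0.000173), and CTSL, a cysteine protease, from 5.5, 5.69 and 6.45 CPM to 4.11, 4.55 and 4.59 CPM (log2 -0.41, adjusted p = 0.0136). In each of these 7 genes the groups did not overlap, as was so for 19 of the 36 in all, called or not. The share of all genes without overlap is not given here. GAA rose from 156, 154 and 134 CPM to 177, 174 and 173 CPM (log2 0.24, SE 0.0528, adjusted p = 0.00183), and NPC1 from 40.1, 41.1 and 41.2 CPM to 44.6, 49.2 and 46.8 CPM (log2 0.20, adjusted p = 0.0119), both without overlap. Among fits that left out 1 library, the call of CTSL was lost in 2 of 6 (adjusted p = 0.0513 and 0.0694), that of NPC2 in 4 of 6 (adjusted p = 0.0505 to 0.0545), and that of NPC1 without replicate 2 of SW620 in RepSox (adjusted p = 0.106).

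The difference in RepSox response between SW620 and HT-29 iZEB1 without DOX was tested in all 18 libraries. It was called for 9 of the 36 genes, 8 above 0 and 1 below, with a median of 0.08, against 5.39% and 4.99% of 19107 genes tested. SMPD1 had the largest difference (log2 1.70, SE 0.246, adjusted p = 3.03e-05, edgeR), its fall being 7.07-fold in HT-29 iZEB1 and 2.17-fold in SW620. WIPI1 followed (log2 1.34, SE 0.154, adjusted p = 1.05e-06). NEU1 and CALCOCO1 fell in both lines and by less in SW620 (differences of 0.53 and 0.36, adjusted p = 0.00322 and 0.00874). IDS, TMEM59, SQSTM1 and CTSZ fell in HT-29 iZEB1 and were not called in SW620, with differences of 0.60, 0.42, 0.39 and 0.37. Of the 9 genes, GABARAPL1 alone fell by more in SW620 (difference -0.91, SE 0.261, adjusted p = 0.025). The call of GABARAPL1 was lost in 6 of 12 fits that left out 1 library (adjusted p = 0.0505 to 0.14), and that of IDS without replicate 2 of HT-29 iZEB1 in DMSO (adjusted p = 0.0536).

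**Figure D4:**
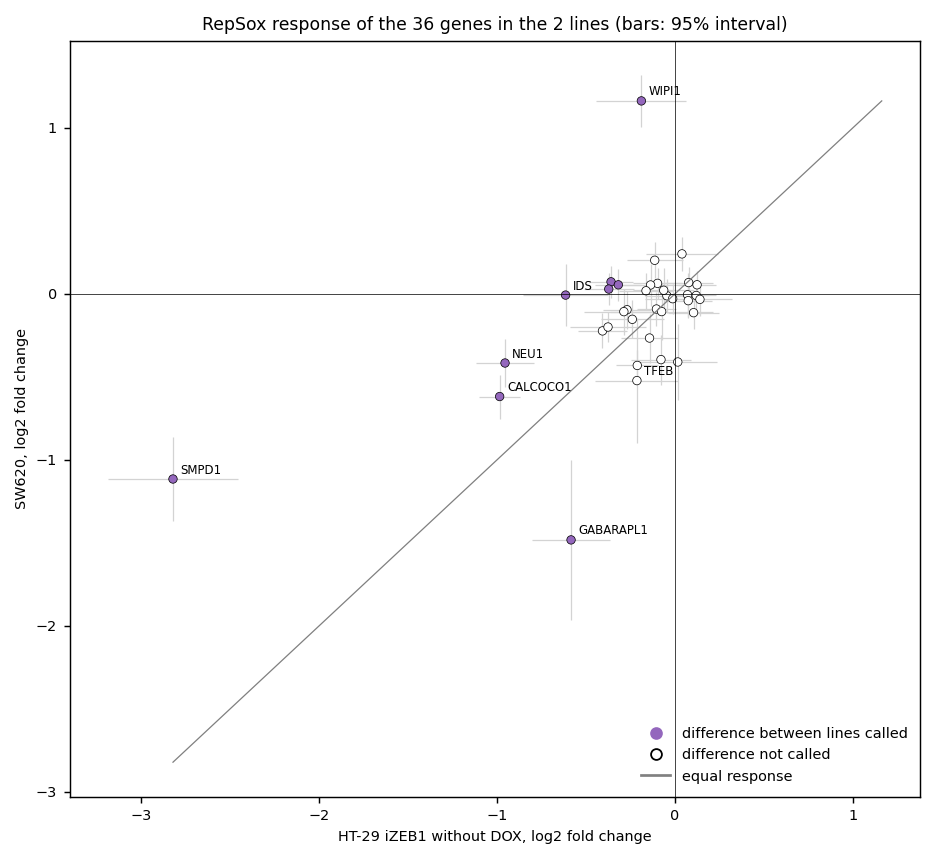
RepSox response (log2 fold change with 95% intervals) of the 36 genes in HT-29 iZEB1 without DOX (horizontal) and in SW620 (vertical), with the line of equal response; purple points are genes whose difference between lines was called. SMPD1 lies at -2.82 and -1.12, WIPI1 at -0.19 and 1.16, and most other genes lie near 0 on both axes.

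In DMSO the lines differed in most of these genes. In SW620, 24 of the 36 were called lower than in HT-29 iZEB1 without DOX and 8 higher, with a median log2 difference of -0.51, against 36.5% and 40.1% of all genes and a median over all genes of 0.06. Scaling by library totals moved that overall median by 0.12, and 22 of the 36 were then lower and 10 higher. All 6 proteases and both transcription factors were lower in SW620. The 36 genes took 0.265% to 0.273% of the counts in SW620 in DMSO, against 0.417% to 0.433% in HT-29 iZEB1.

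GAA had the widest gap, with 134 to 156 CPM in SW620 against 9.41 to 10.5 CPM in HT-29 iZEB1, 15-fold higher (log2 3.91, SE 0.0866, adjusted p = 1.08e-22, edgeR). The other 7 that were higher in SW620 were SMPD1, WIPI1, LIPA, GLA, GUSB, ATP6V0D1 and MCOLN1, of which SMPD1 was 2.09-fold higher (log2 1.06, adjusted p = 1.24e-07). WIPI1 stood at a mean of 9.43 CPM in SW620 against 5.39 CPM. ARSG, which overlaps 24.3% of its exon bases on the other strand, was 5.5-fold higher in SW620. Its means were 17.6 against 3.29 CPM (adjusted p = 9.55e-16, edgeR), and the part of ARSG was not tested. LIPA stood at 78.3, 77.6 and 86.1 CPM in SW620 against 45.8, 44.8 and 51.6 CPM in HT-29 iZEB1, and GUSB, beta-glucuronidase, at 109, 111 and 110 against 72.4, 79.4 and 72 CPM. TFEB stood at 2.44, 2.26 and 1.82 CPM in SW620, below all HT-29 iZEB1 libraries, and was 7.85-fold lower (log2 -2.97, SE 0.143, adjusted p = 9.18e-16), while TFE3 was 1.26-fold lower (log2 -0.33, adjusted p = 6.56e-05). GABARAPL1 was 5.32-fold lower. CTSD stood at 65.6, 66.2 and 54 CPM in SW620, 5.03-fold lower (log2 -2.33, SE 0.104), and CTSZ at 135, 121 and 122 CPM, 3.3-fold lower (log2 -1.72, SE 0.0633). PSAP was 3-fold and ATG9A 2.83-fold lower (log2 -1.58 and -1.50). Per length the order in HT-29 iZEB1 in DMSO began with PSAP at 269 ± 10.3 CPM per kb, CTSZ at 210 ± 11.9, CTSD at 103 ± 5.97 and LAMP1 at 86.7 ± 4.32 (SD, n = 3), and ended with SMPD1 and IDS, both at 1.31, which did not differ beyond their spread. In SW620 it began with PSAP at 87.3 ± 3.01, CTSZ at 61.9 ± 3.96 and LAMP1 at 42.3 ± 0.776, and GAA stood at rank 6 with 28.7 ± 2.38 CPM per kb, within its spread of PPT1 at 29.8 ± 0.743 and GUSB at 27.6 ± 0.269. The lines differ in origin and in many other ways, and the labels give no batch, so line and any batch cannot be told apart.

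**Figure D5:**
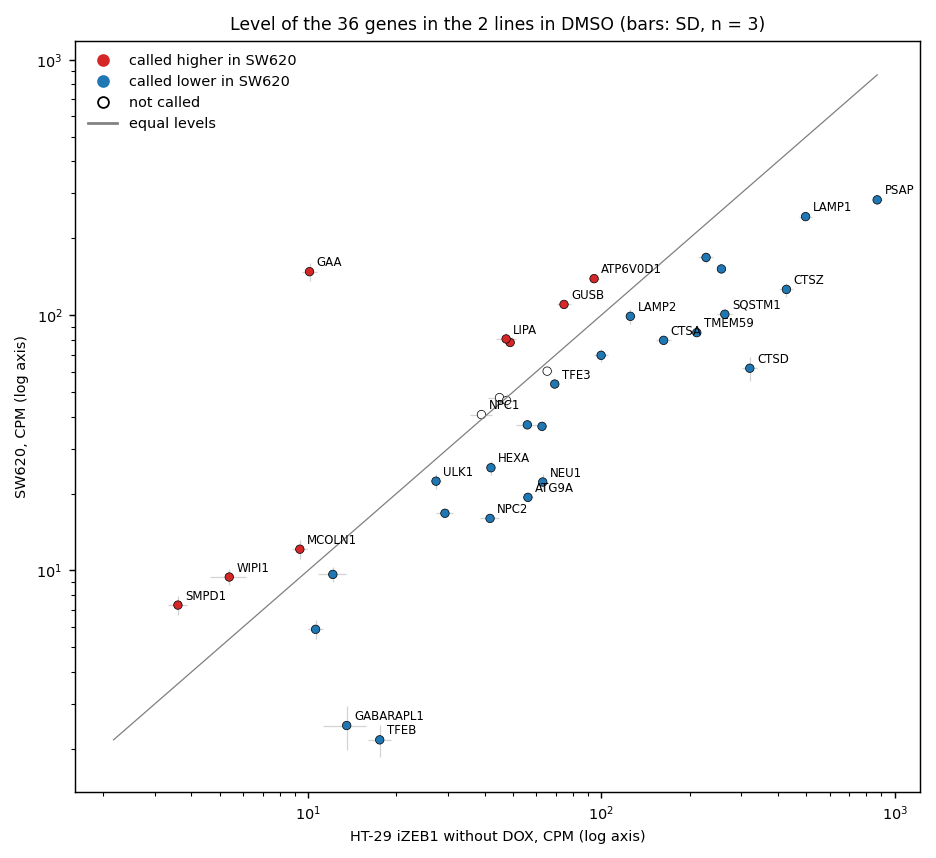
Mean level of each of the 36 genes in HT-29 iZEB1 without DOX (horizontal) and in SW620 (vertical), both in DMSO, in CPM on log axes, with SD of 3 libraries as bars and the line of equal levels. GAA lies far above the line, and TFEB, GABARAPL1 and CTSD lie farthest below it.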

How the data were processed

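Reads were turned into counts per gene by the authors, and the deposited table holds raw, whole-number counts for 18 libraries. Per the submitters' processing notes, FastQC 0.11.9, HISAT2 2.2.0, featureCounts 2.0.0, DESeq2 1.34.0 and the build GRCh38.p13 were used; for their settings, the strand and the annotation release, the answer is not given in the sources used here. Counts without strand information cannot separate overlapping genes, and counts do not separate the inducible ZEB1 from the cell's own.

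The counts were fitted with edgeR 4.0.16 (R 4.3.3): genes were kept by filterByExpr (minimum count 10), libraries scaled by TMM, and the quasi-likelihood F-test (glmQLFTest) adjusted after Benjamini-Hochberg across every gene in the fit, with calls below 0.05. The 12 HT-29 iZEB1 libraries (16978 genes), the 6 SW620 libraries (17147 genes) and all 18 libraries (19107 genes, for comparisons between lines) were fitted apart, with biological coefficients of variation of 7.82%, 5.1% and 7.04%. The fits were also run on simulated counts, with planted changes larger than the median change of the 36 genes in any comparison. The outcome is not given here and would not vouch for smaller changes. Between replicates the SD of the 36 genes was 5.11% of the mean in the median.

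The 36 genes and the other lists were chosen with earlier results of these data known. Values in every library are given mainly for the called genes with the largest changes, up to 6 in each direction of a comparison and at least 5 CPM in the higher group. Some are given outside that limit, such as those of LAMP1 and TPP1 with DOX, and of GABARAPL1 in SW620, which lies below 5 CPM. Genes outside the 36 are limited to 3 per direction and list, with no overlap between libraries. Gene positions and exon lengths are from GENCODE 29 on GRCh38, and promoter sequences from RefSeq on GRCh38.p14. Alternatives were DESeq2's size factors, scaling by library totals, no filter on low counts, DESeq2 1.42.0, the replicate number as a block, all libraries in 1 fit, and leaving out each library.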

Additional observations from a re-analysis of the deposited data

Results flagged for a closer look

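The response to RepSox differed between SW620 and HT-29 iZEB1 without DOX for 9 of the 36 genes, by an edgeR test of the difference itself over all 18 libraries with Benjamini-Hochberg adjustment. Values are the log2 response in SW620 minus that in HT-29 iZEB1. SMPD1 had 1.70 (adjusted p = 3.03e-05), falling in all 3 RepSox libraries of both lines, and WIPI1 had 1.34 (adjusted p = 1.05e-06), with responses of 1.16 in SW620 and -0.19 in HT-29 iZEB1, the latter not called. IDS had 0.60 (adjusted p = 0.0174), NEU1 0.53 (adjusted p = 0.00322), TMEM59 0.42 (adjusted p = 0.000687) and SQSTM1 0.39 (adjusted p = 0.00665). CTSZ had 0.37 (adjusted p = 0.00666), CALCOCO1 0.36 (adjusted p = 0.00874) and GABARAPL1 -0.91 (adjusted p = 0.025). ZEB1 mRNA itself had a difference of 0.80 (adjusted p = 0.000469) in the same test, and its part in these differences was not tested. GABARAPL1 rests on 104 counts over the 3 SW620 libraries with RepSox.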

How the results depend on the processing

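No call among the 36 genes changed direction under any alternative. Of the calls, 20 of 29 held under every alternative for DOX in DMSO, 25 of 32 for RepSox with DOX, 9 of 12 for RepSox without DOX, 13 of 17 for the interaction, 13 of 18 for DOX with RepSox against DMSO alone, 9 of 13 for RepSox in SW620, 30 of 32 between lines and 7 of 9 for the line difference. For DOX in RepSox, where 0 of the 36 and 81 of all genes were called, no filter on low counts gave 2 and 584, DESeq2 gave 1 and 264, and all 18 libraries together gave 0 and 162. Leaving out 1 library gave 0 to 6 of the 36 and 27 to 1670 of all genes; the cause was not tested. For RepSox in SW620, all 18 libraries together called 2019 of all genes against 3338; the cause was not tested. Scaling by library totals moved the share of higher calls for DOX in DMSO from 82.8% to 96.2% of the 36 genes and from 47.6% to 59.5% of all genes, and for RepSox in SW620 from 52.5% to 39.5% of all genes. Leaving out 1 library gave 22 to 26 of the 36 for DOX in DMSO, 28 to 30 for RepSox with DOX, 10 to 12 for RepSox without DOX, 13 to 22 for the interaction, 11 to 13 for RepSox in SW620 and 7 to 10 for the line difference. Over all genes, in that order, these fits gave 5812 to 7055, 7869 to 8730, 3207 to 3591, 3221 to 4393, 2359 to 4043 and 1521 to 1844. With every library the numbers over all genes were 6853, 8864, 4290, 3834, 3338 and 1982. With the replicate number as a block (replicate block), 29, 33, 13 and 0 of the 36 were called for DOX in DMSO, RepSox with DOX, RepSox without DOX and DOX in RepSox, 18 for the interaction and 13 in SW620. Over all genes the block gave 6955, 8948, 4446, 109, 3925 and 2848 in that order. Libraries with the same number did not deviate together (correlation -0.14 to 0.10 over 18 pairs in HT-29 iZEB1 and -0.06 to 0.01 over 3 pairs in SW620). Libraries with different numbers had -0.13 to 0.17 over 36 pairs and -0.03 to 0.05 over 6 pairs. Whether equal numbers mark a set is not stated in the labels. These correlations cannot decide it, as libraries of a set need not deviate together. Depth limits SMPD1 with RepSox in HT-29 iZEB1 (54 and 53 counts over 3 libraries).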
